A study of Sus scrofa with 48 samples.

Results

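The genes of the mitochondrial ribosome and of mitochondrial protein import were described in pig perirenal adipose tissue (PRAT), the fat around the kidney. Members were the array probes whose gene name begins with MRPL, MRPS, TIMM or TOMM, ignoring case, together with the probes named AD014, an older name of TOMM7. The rule found 114 of 60306 gene probes. They stood for 75 of 45222 gene names, of which 58 were ribosome genes (36 MRPL and 22 MRPS) and 17 were import genes (7 TIMM and 10 TOMM). For a gene with several probes the brightest on average stood for it, without regard to diet or line. Genes were taken by name, and this set of names was chosen with earlier results of these data known. The representative probe of 70 genes (55 ribosome, 15 import) was among the 38142 probes that the authors kept, and these 70 genes were the ones tested.

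The study crossed diet with genetic line in 48 castrated male Large White pigs, labelled as 132 days old, with 12 pigs in each of 4 groups and 1 array for each pig. Pigs of the low RFI line (RFIneg) or the high RFI line (RFIpl) were fed without restriction on diet HF, rich in fat and fiber, or on diet LF, poor in both and rich in starch. RFI stands for residual feed intake, the surplus of feed eaten over the need computed from growth and maintenance. Low RFI pigs are the more efficient, and the lines had been selected in opposite directions for it. Each line is 1 selected population of the same breed, and pigs within a line can be related. Whole tissue was used, so that fewer cells of a type and less RNA per cell cannot be told apart.

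Mitochondria translate a small set of proteins, all of them subunits of the respiratory chain and ATP synthase, on ribosomes of their own. The proteins of these ribosomes are encoded in the nucleus, by genes named MRPL for the large subunit and MRPS for the small subunit, and must be imported. Import begins at the translocase of the outer membrane (TOM), with receptors, the pore TOMM40 and small subunits around it. Presequence proteins then pass the inner membrane through the TIM23 complex, carrier proteins enter the membrane through the TIM22 complex, and small TIM proteins escort membrane proteins between the membranes. In pig adipose tissue, mitochondria take part in the conversion of glucose carbon to fatty acids as well as in respiration.

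The probes are 60 bases long and were read from the scanner files. The first 30 bases of each are shown 5′ to 3′ for the genes on which the results turn, and their genome positions were not used here. The first set holds the import and ribosome probes with large diet differences.
TIMM17A probe 1: ggctttgttctcagtcacacaataaaaaga
TIMM8A probe 1: gtcatactaaactgccgcaaggaagaagtt
MRPL35 probe 1: gtgtgtgtctatttatgggaccagttaata
The second set holds probes that differed between lines.
TOMM5 probe 1: caaactccattttctagcaagtgttaatta
MRPL9 probe 1: ttggaattcattggaacaaatggtaaagct
MRPL9 probe 2: tgaggcgcttggtgttgtggttgccccaca
MRPL17 probe 1: atttctggagaaccagaacacgctcggtct
The third set holds genes whose probes can be compared with each other, and capitals mark bases that lie in a run shared with another probe of the same gene.
MRPL40 probe 1: atgtaccaggacatcaccaaggtgtacaca
MRPL40 probe 2: atattaatcctcctttgaaacacgatactc
MRPS18C probe 1: GGATCCTGCATATCTCAAAGACCCTAAAGT
MRPS18C probe 1 is identical to probe 2 of that gene over 60 bases. The last pair is a probe of MRPL24 and a probe with another name that is its full reverse complement, of which the last 30 bases are shown.
MRPL24 probe 1: tctttgtcttagccttgaagcttggggcca
MRPL24 reverse complement: tggccccaagcttcaaggctaagacaaaga
The polyadenylation signal AATAAA was present on the printed strand of 12 of the 114 member probes, or 10.5%, and of 10.3% of all 60306 gene probes. Its reverse complement, TTTATT, was present in 2.63% of the member probes and 4.32% of all gene probes.

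Levels are given as log2 of the median Cy3 signal of a spot minus the median of the array, so that 0 is the median kept probe. A difference is HF minus LF, or low RFI minus high RFI, on that log2 scale, with its standard error (SE). A gene was called when limma gave a raw p under 0.01, a fold over 1.1 and a Benjamini-Hochberg (BH) adjusted p under 0.08 over all 38142 probes. Median array signal lay between 382 and 638 units over a median background of 23 to 33, and 64.5% to 79.3% of gene probes were well above background. The level of one probe cannot be set against that of another. Of the 5 genes without a kept probe, MRPL15 was well above background on 48 arrays, TOMM40 on 28, MRPL13 on 23, TIMM9 on 6 and MRPS35 on 0.

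Diet moved many of these genes, and the count depended on how the arrays were scaled. Of the 55 ribosome genes tested, 30 were called lower on the HF diet and 0 higher, whereas 6 were called lower and 1 higher when the arrays were centred on their spike-in controls instead of their median. Over all kept probes, 15.5% were called lower on HF and 8.94% higher, and with spike-in centring these shares were 3.39% and 27.7%. The differences of 54 ribosome genes lay below 0, and 42 did with spike-in centring. The median difference was -0.16, a 1.12-fold lower signal, against a median of -0.02 over all kept probes. With spike-in centring, every diet difference shifted by the same amount, so that the median of all probes became 0.10 and that of the ribosome genes -0.03. The distance between the ribosome median and the median of all probes, -0.14, was the same under both.

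The import genes had a similar median, with no test of the difference between the classes. Of 15 tested, 8 were called lower on HF and 0 higher, and 1 was called lower with spike-in centring. The median difference was -0.18, or -0.16 relative to all probes, and became -0.05 with spike-in centring. Genes named for the large subunit (MRPL) were called lower in 20 of 34 cases and those named for the small subunit (MRPS) in 10 of 21, with medians of -0.17 and -0.16. TIMM genes were called lower in 4 of 6 cases and TOMM genes in 4 of 9. With spike-in centring the calls lower on HF were 5 MRPL, 1 MRPS, 1 TIMM and 0 TOMM genes, and the median of the TOMM genes turned to 0.00392.

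**Figure D1:**
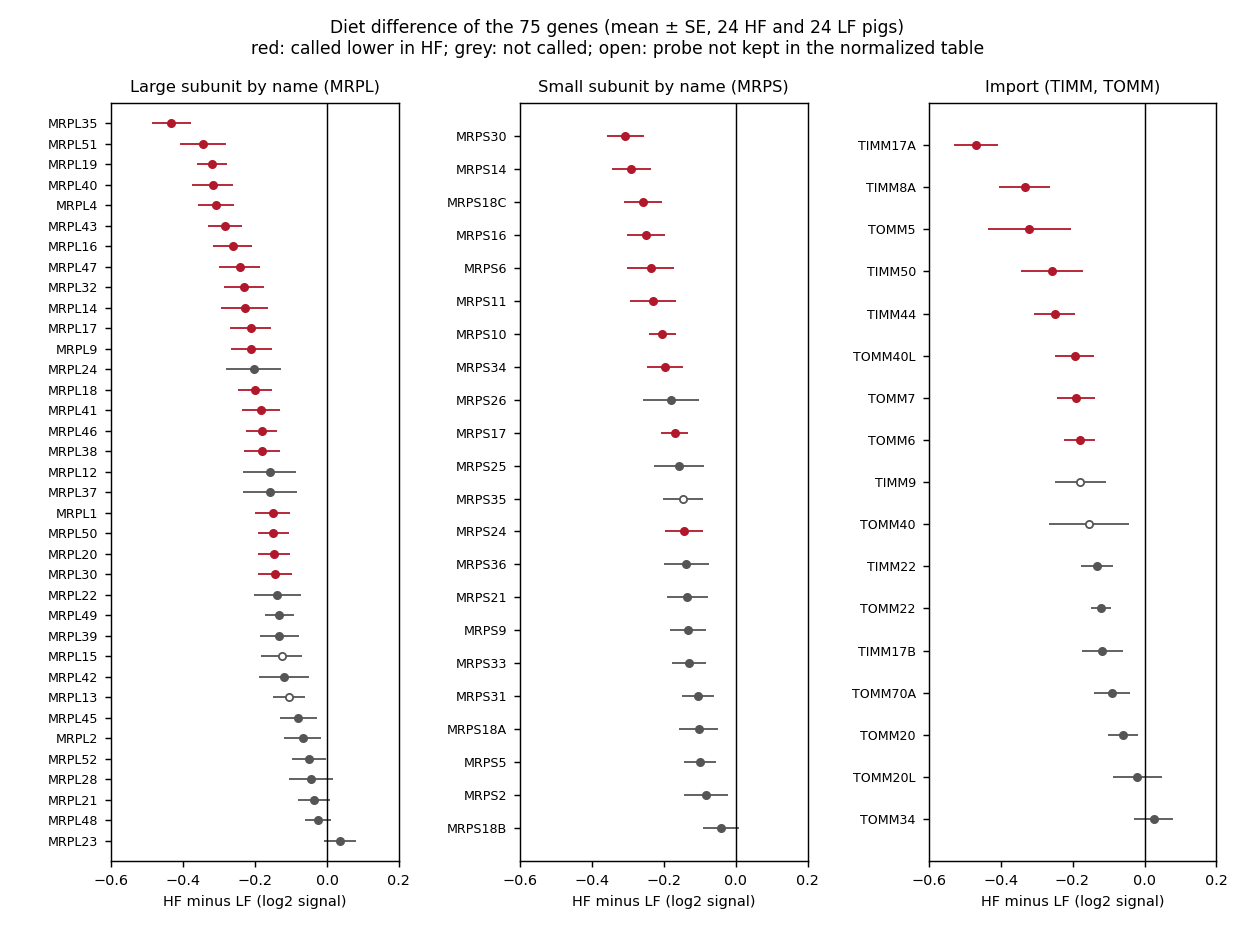
Diet difference (HF minus LF, log2 signal, mean ± SE over 24 HF and 24 LF pigs) of all 75 genes, in panels for MRPL, MRPS and the import genes, with red points for calls, grey points for genes not called and open points for the 5 genes without a kept probe. Only MRPL23 and TOMM34 lie to the right of 0 on this median-centred scale, and spike-in centring, which moves the median of all probes to 0.10, shifts every point to the right by the same amount.

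The size of the shift differed among ribosome genes, from -0.43 to 0.04. MRPL35, a large subunit protein, had the largest difference. Its level on HF was 0.54 at the lowest, 0.83 at the median and 1.22 at the highest, and on LF 0.82, 1.34 and 1.56. All 24 HF pigs lay below the LF median, 12 of them lay below every LF pig, and the diets overlapped in the rest. The difference was -0.43 ± 0.05 (limma, BH p = 1.83e-07), a 1.35-fold lower signal.

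MRPL19, also of the large subunit, separated the diets most cleanly among the genes named here. HF pigs ran from 0.60 through a median of 0.85 to 1.08, and LF pigs from 0.97 through 1.18 to 1.43. As many as 18 HF pigs lay below every LF pig and 18 LF pigs lay above every HF pig, with a difference of -0.32 ± 0.04. For MRPS30, whose name is that of the small subunit although the protein sits in the large one, HF pigs ran from 1.32 to 1.74 (median 1.56) and LF pigs from 1.37 to 2.23 (median 1.85). Here 21 LF pigs lay above every HF pig but only 2 HF pigs lay below every LF pig, and the difference was -0.31 ± 0.05.

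Further large subunit genes with large differences were MRPL51, MRPL40 and MRPL4. MRPL51 ran from 2.66 to 3.42 on HF (median 2.94) and from 2.83 to 3.60 on LF (median 3.32), a difference of -0.34 ± 0.06. MRPL40 ran from 4.01 to 4.66 on HF (median 4.38) and from 4.24 to 4.90 on LF (median 4.68), a difference of -0.32 ± 0.06. However, its second probe, dim at a mean level of -2.28, gave -0.01 ± 0.06 and was not called. Diet ranges overlapped in both genes, with 23 and 24 of the HF pigs below the LF median. MRPL4 ran from 3.77 to 4.34 on HF (median 4.02) and from 3.96 to 4.56 on LF (median 4.33), a difference of -0.31 ± 0.05. The next in size were MRPS14 (-0.29), MRPL43 (-0.28), MRPL16 (-0.26) and MRPS18C (-0.26), each with an SE of 0.05 and each with overlapping diets.

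The genes not called were mostly on the same side of 0. MRPL12, which binds the mitochondrial RNA polymerase as well as the ribosome, differed by -0.16 ± 0.07 (limma, BH p = 0.0968). MRPL49, with -0.13 ± 0.04, and MRPS33, with -0.13 ± 0.05, passed both p thresholds but not the fold threshold of 1.1. MRPS36, which is now placed with the oxoglutarate dehydrogenase complex, differed by -0.14 ± 0.06 and was not called. The genes with the brightest ribosome probes were MRPS6 (-0.24 ± 0.07), MRPL24 and MRPL41 (-0.18 ± 0.05), of which MRPS6 and MRPL41 were called, and the dimmest were MRPS35, MRPL13 and MRPL39 (-0.13 ± 0.06), of which none was. MRPL23 was the only tested ribosome gene above 0, at 0.04 ± 0.04, and with spike-in centring it was called higher on HF at 0.16.

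In the import pathway, the TIM23 complex held the largest difference of all 75 genes. TIMM17A, a subunit of the channel of this complex, ran from 3.21 to 4.07 on HF (median 3.61) and from 3.66 to 4.53 on LF (median 4.03). As many as 16 HF pigs lay below every LF pig, and 23 lay below the LF median. The difference was -0.47 ± 0.06 (limma, BH p = 3.7e-07), a 1.38-fold lower signal, and it ranged from -0.71 to -0.27 over the 6 slides.

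TIMM17B, the paralogue that takes the same place in the complex, ran from 3.79 to 4.51 on HF (median 4.21) and from 3.95 to 4.60 on LF (median 4.35). Its diets overlapped almost throughout, and its difference of -0.12 ± 0.06 was not called (limma, BH p = 0.11). The difference between the paralogues was not tested. TIMM44, which ties the import motor to the channel, was lower by -0.25 ± 0.06. TIMM50, the receptor of the complex, was lower by -0.26 ± 0.09 and was well above background on 47 arrays. Its probe was dim, at a mean level of -2.78. Over the scalings its difference ranged from -0.13 with spike-in centring, where it was not called, to -0.42 with the 75th percentile. TIMM22, the channel for carrier proteins, differed by -0.13 ± 0.05 with a fold under 1.1 and was not called.

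TIMM8A, a small TIM protein of the intermembrane space, ran from 0.61 to 1.46 on HF (median 1.04) and from 0.71 to 1.89 on LF (median 1.34). The ranges overlapped, with 22 HF pigs below the LF median, and the difference was -0.33 ± 0.07. A second probe of TIMM8A gave -0.29 ± 0.08 and was called as well. TIMM9, another small TIM protein, was near background and differed by -0.18 ± 0.07, and without the filter on probes it was not called.

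The outer membrane genes were grouped by role, and the difference between roles was not tested. All 3 small subunits of the TOM complex were called lower on HF and none of the 3 receptors was, on the median-centred scale. TOMM6 ran from 5.61 to 6.01 on HF (median 5.82) and from 5.69 to 6.26 on LF (median 6.03), with all 24 HF pigs below the LF median and a difference of -0.18 ± 0.04. TOMM7 differed by -0.19 ± 0.05, with a second kept probe at -0.17 ± 0.05. TOMM5 differed by -0.32 ± 0.12, with wider spread within each diet, from 1.63 to 3.23 on HF and from 1.70 to 3.52 on LF. With spike-in centring none of these 3 was called.

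Among the receptors, TOMM22 had the smallest SE of the genes named. It ran from 4.41 to 4.80 on HF (median 4.63) and from 4.64 to 4.91 on LF (median 4.73), and 14 HF pigs lay below every LF pig. Its difference of -0.12 ± 0.03 (limma, BH p = 0.000861) was a fold of 1.09, just under the threshold of 1.1, so that it was not called on size. TOMM20, the presequence receptor, had 9 kept probes, of which 0 were called, with differences from -0.08 to -0.02. TOMM70A, the receptor for carrier proteins, differed by -0.09 ± 0.05. With spike-in centring all 3 receptors changed sign, to 0.00 for TOMM22, 0.07 for TOMM20 and 0.04 for TOMM70A.

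The pore TOMM40 was near background, at -0.15 ± 0.11, and its relative TOMM40L was lower by -0.19 ± 0.05. TOMM34, a cytosolic cofactor of import, differed by 0.03 ± 0.06, and TOMM20L by -0.02 ± 0.07. Neither was called.

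**Figure D2:**
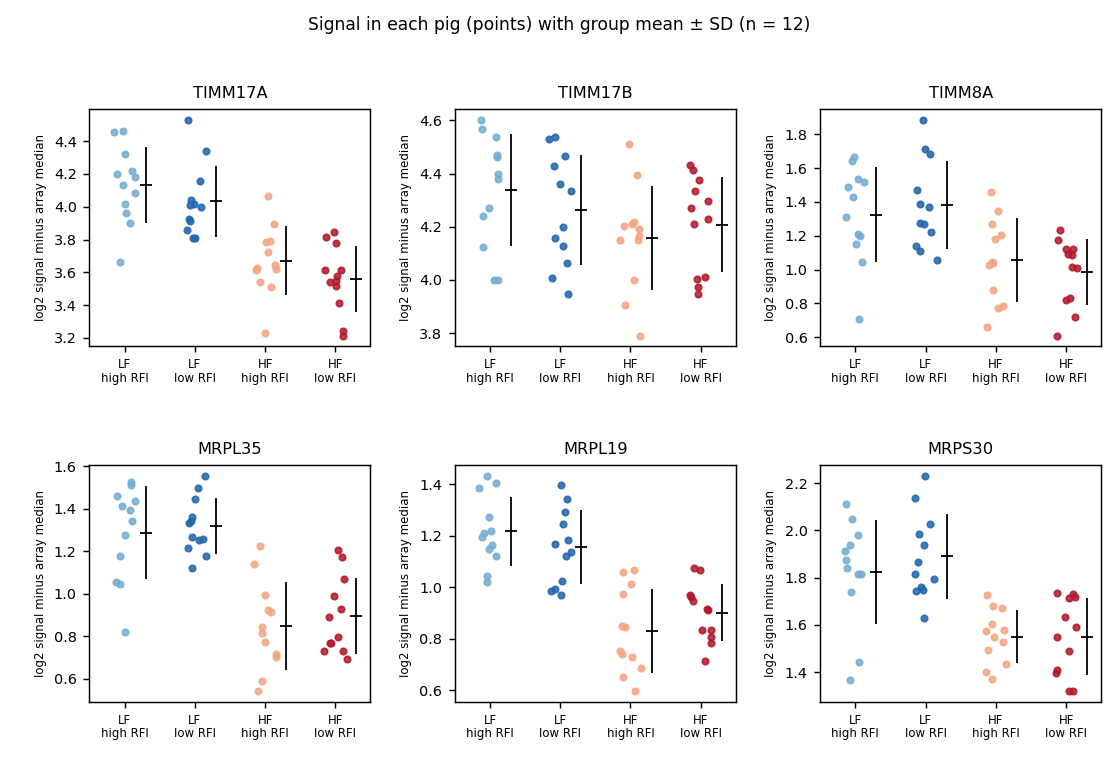
Level in each pig (points, log2 signal minus the array median) in the 4 groups, with the group mean ± SD (n = 12), for TIMM17A, TIMM17B, TIMM8A, MRPL35, MRPL19 and MRPS30. The red HF groups have lower means than the blue LF groups in both lines, with the most overlap for TIMM17B, and with spike-in centring TIMM17A, MRPL35, MRPL19 and MRPS30 were still called lower.

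Of the 70 tested genes, 7 were called lower on HF under all 5 scalings of the arrays. The share of all probes called lower under all 5 was not counted, and 3.39% were called lower with spike-in centring. The 7 genes were TIMM17A and 6 ribosome genes, MRPL35, MRPL19, MRPL51, MRPL40 (with its brightest probe, not with its second), MRPL4 and MRPS30. With spike-in centring, the scaling with the fewest calls, TIMM17A differed by -0.34 and MRPL35 by -0.31, and the other 5 by -0.22 to -0.18. Quantile normalization left 19 ribosome and 4 import genes called lower, beside 11.9% of all probes, with medians of -0.13 and -0.10. The 75th percentile left 27 and 8, beside 12.9%, and normexp left 18 and 4, beside 10.9%. The spike-in controls (245 spots) stood at 2.78 above the array median on average in HF pigs and at 2.90 in LF pigs. The difference was -0.13, with p = 0.0019 in a two-sided permutation test with 100000 permutations. All 6 slides had a median diet difference below 0 on the median-centred scale, from -0.22 to -0.08 for ribosome genes and from -0.26 to -0.07 for import genes.

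**Figure D3:**
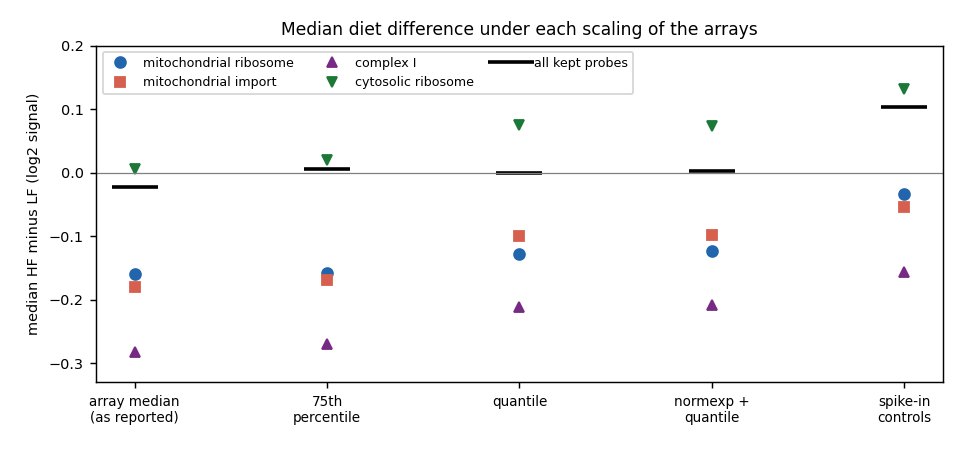
Median diet difference (HF minus LF, log2 signal) of the ribosome and import genes, of complex I and cytosolic ribosome genes and of all 38142 kept probes (black bars), under each of 5 scalings. Ribosome and import medians lie below the bar of all probes under each scaling and come closest to 0 with spike-in centring, at -0.03 and -0.05.

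As a mean over the tested genes of a class, the level per pig overlapped between diets. The ribosome mean ran from 1.93 to 2.28 on HF (median 2.15) and from 2.06 to 2.48 on LF (median 2.31). The import mean ran from 1.78 to 2.12 on HF (median 1.95) and from 1.86 to 2.28 on LF (median 2.14). The highest HF pig thus lay below the LF median for both classes, on the median-centred scale.

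Other genes of the same machinery, from lists chosen with earlier results of these data known, gave the following counts on the median-centred scale. Of 5 ribosome subunits without an MRP symbol, 4 were called lower on HF, with a median of -0.16, among them CHCHD1 (-0.23 ± 0.03), DAP3 (-0.16 ± 0.04) and ICT1 (-0.22 ± 0.06). Of 16 other import, sorting and folding genes, 10 were called lower, with a median of -0.18. They included DNAJC19, a co-chaperone of the TIM23 import motor (-0.37 ± 0.05), its relative DNAJC15 (-0.28 ± 0.05), and the matrix chaperonins HSPE1 (-0.38 ± 0.07) and HSPD1 (-0.29 ± 0.06). HSPA9, the motor itself, differed by -0.10 ± 0.06 and was not called.

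The proteins that use or build the ribosome gave the following counts. Translation factors were called lower in 3 of 7 cases (median -0.13), among them the elongation factor TUFM (-0.23 ± 0.07) and MTFMT, which formylates the initiator tRNA (-0.23 ± 0.06). Mitochondrial aminoacyl-tRNA synthetases and related enzymes were called lower in 4 of 12 cases (median -0.11), including IARS2 (-0.15 ± 0.04) and QRSL1, of the amidotransferase that completes glutaminyl-tRNA (-0.35 ± 0.07). Ribosome assembly genes were called lower in 1 of 12 cases (median -0.08), a smaller share than the 15.5% of all probes, and the gene called was TFB1M, the methyltransferase of the small ribosomal RNA (-0.19 ± 0.06). Of 6 genes of mitochondrial transcription and biogenesis, 3 were called lower, namely ESRRA, LRPPRC and SLIRP, whereas TFAM, which packages mitochondrial DNA, differed by -0.07 ± 0.03. None of these lists had a gene called higher on that scale, and the differences between lists were not tested. With spike-in centring 3 genes of these lists were called lower, all of them import genes (DNAJC19, DNAJC15 and HSPE1). Another 5 were called higher, the initiation factors MTIF2 and MTIF3, the synthetases RARS2 and TARS2, and NSUN4, an RNA methyltransferase of ribosome assembly. The medians of the synthetases, assembly genes and transcription genes then turned to 0.02, 0.05 and 0.00187.

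For comparison, 32 of 36 complex I genes were called lower on HF (median -0.28), and with spike-in centring 8 were. The proteasome had 21 of 36 genes called lower (median -0.16), and with spike-in centring 3 called lower and 1 higher (median -0.04). The cytosolic ribosome, which also translates nuclear transcripts of the mitochondrial proteins, had 4 of 82 called lower and 4 called higher (median 0.01), and with spike-in centring 31 called higher. The MRP genes thus lay on the other side of the median of all probes from the cytosolic ribosome genes, by -0.14 against 0.03.

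Markers of other cells moved with diet too, on the median-centred scale, and their values with spike-in centring are not given. Over all kept probes, 8.94% were called higher on HF and 15.5% lower on that scale. Of 5 macrophage markers 3 were called higher on HF, namely CD163 (0.70 ± 0.24), CSF1R (0.48 ± 0.14) and AIF1 (0.36 ± 0.12), and their summed signal ran from 7.18 to 29.7 times the array median on HF (median 15.4) and from 6.41 to 27.0 on LF (median 10.6). Of 5 T and NK cell markers 1 was called higher, CD3G (0.34 ± 0.10), with sums from 1.52 to 3.31 on HF and from 1.28 to 4.17 on LF. Of 6 adipocyte markers 1 was called lower, CIDEC (-0.24 ± 0.07), with sums from 1414 to 1958 on HF and from 1561 to 2001 on LF, so that the tissue carried its defining markers in every pig. Endothelial, erythrocyte, muscle and adrenal markers had 0 calls of 5, 2, 3 and 2 tested. CIDEA, listed here as a marker of brown and beige adipocytes, was lower by -0.42 ± 0.10, while DIO2 differed by -0.07 ± 0.12. The summed signal of the 3 markers found for these adipocytes, not all of which are named here, ran from 28.4 to 79.9 on HF and from 46.4 to 95.9 on LF. The kidney marker AQP2 was lower by -0.63 ± 0.13. The part of these cell types in the results was not tested.

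Line moved few of the genes. Of 55 ribosome genes 2 were called higher in the low RFI line and 0 lower, and of 15 import genes 1 was called higher and 0 lower, beside 1.81% of all probes in each direction. The median line difference of the ribosome genes was 0.03. At a raw p under 0.05, 6 ribosome and 3 import genes differed, beside 12.9% of all probes. These counts take the brightest probe of each gene. MRPL52, of the large subunit, was not called with its brightest probe (0.10 ± 0.05), whereas 2 of its 4 kept probes were called higher in the low RFI line, at 0.21 ± 0.05 (limma, BH p = 0.00313) and 0.19 ± 0.05 (limma, BH p = 0.0152). With spike-in centring 1 of these was still called, at 0.18, and the other, at 0.16, was not.

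TOMM5, the small TOM subunit, had the largest line difference of the 75 genes. Low RFI pigs ran from 2.20 to 3.52 (median 2.95) and high RFI pigs from 1.63 to 3.02 (median 2.44). As many as 10 low RFI pigs lay above every high RFI pig and 8 high RFI pigs below every low RFI pig, and the rest overlapped. The difference was 0.49 ± 0.12 (limma, BH p = 0.00833), a 1.41-fold higher signal, and it lay above 0 on all 6 slides, from 0.01 to 0.88. It was 0.50 on the HF diet and 0.49 on the LF diet. TOMM5 has 1 probe on the array, whose name is written in lower case.

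MRPL9, a large subunit protein, differed by 0.23 ± 0.06 between lines (limma, BH p = 0.0153). Low RFI pigs ran from 3.92 to 4.86 (median 4.44) and high RFI pigs from 3.69 to 4.67 (median 4.20), with 21 of 24 low RFI pigs above the high RFI median. Its second probe, which shares no run of 20 bases with the first, was called too, at 0.29 ± 0.05. MRPL17, another large subunit protein, ran from 2.44 to 3.24 in low RFI pigs (median 2.88) and from 2.31 to 3.03 in high RFI pigs (median 2.63), a difference of 0.20 ± 0.06 (limma, BH p = 0.043). The lines overlapped for both genes, and both differences were above 0 on all 6 slides.

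These 3 line calls met the spike-in scaling differently. TOMM5 was still called, at 0.46, beside 0.912% of all probes called higher in the low RFI line with that scaling, whereas MRPL9 (0.20, limma BH p = 0.0933) and MRPL17 (0.17, limma BH p = 0.213) were not. All 3 genes were also called lower on HF on the median-centred scale and not with spike-in centring. MRPL15, not among the kept probes, differed by 0.20 ± 0.06 between lines in the fit of all gene probes and was called there. MRPS9 (0.14 ± 0.05) and TOMM20L (0.19 ± 0.07) had raw p values of 0.00799 and 0.00699 but BH values of 0.147 and 0.134.

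**Figure D4:**
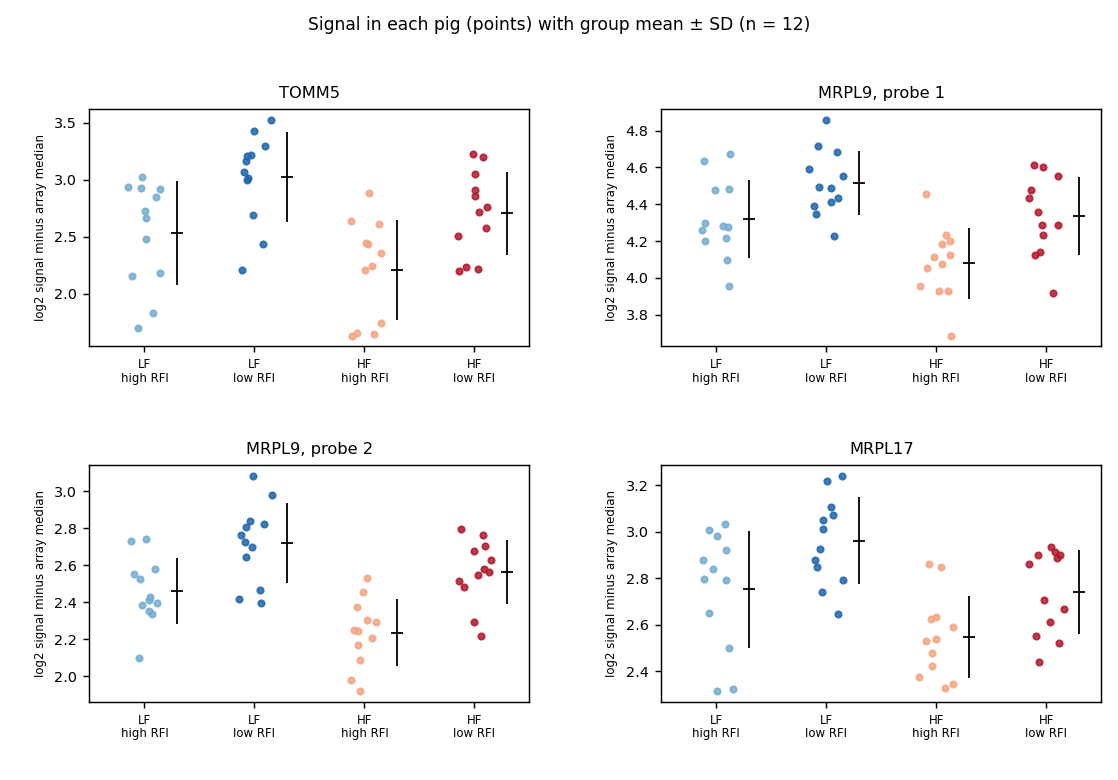
Level in each pig (points, log2 signal minus the array median) in the 4 groups, with the group mean ± SD (n = 12), for TOMM5, both probes of MRPL9 and MRPL17. Within each diet the low RFI group has the higher mean in every panel, and the lines overlap in each; with spike-in centring TOMM5 kept its line call and probe 1 of MRPL9 and MRPL17 lost it.

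The related lists had 5, 16, 7, 12, 12 and 6 genes tested. Among them 3 genes were called for line, beside 1.81% of all probes in each direction, and they are named after their values were seen. TFB1M was higher in the low RFI line by 0.30 ± 0.06 and MTIF3, an initiation factor, by 0.19 ± 0.04, whereas MTERFD1, an assembly factor, was lower by -0.34 ± 0.05.

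Dependence of the diet difference on line was tested as an interaction. At a raw p under 0.01 the interaction gave 0 of 55 ribosome and 0 of 15 import genes, beside 0.283% of all probes, and at a raw p under 0.05 it gave 2 ribosome genes and 0 import genes, beside 2.27%. No probe had an interaction with a BH p under 0.08. The pair of ribosome genes was MRPL48, with 0.07 in the low RFI line and -0.12 in the high RFI line (raw p = 0.0148), and MRPL21, with -0.13 and 0.06 (raw p = 0.046), neither passing correction with limma.

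Within the low RFI line, 23 of 55 ribosome and 3 of 15 import genes were called lower on HF, beside 9.8% of all probes. Within the high RFI line, the counts were 19 and 5, beside 9.59%. These counts rest on 12 pigs for each diet and do not test a difference between the lines. With spike-in centring the ribosome counts became 0 lower and 2 higher in the low RFI line, beside 0.771% and 23.6% of all probes. In the high RFI line they became 4 lower and 0 higher, beside 3.17% and 7.77%. TIMM17A, whose difference was -0.48 in the low and -0.46 in the high RFI line, was called in both. The median ribosome difference was -0.16 in the low and -0.18 in the high RFI line, and with spike-in centring 0.02 and -0.11. Within a diet, 0 of the 70 genes were called for line, beside 0.511% of all probes called higher in the low RFI line on HF and 0.288% on LF. At a raw p under 0.05, 6 ribosome and 2 import genes differed on HF, beside 9.84% of all probes, and 2 of each on LF, beside 6.65%.

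**Figure D5:**
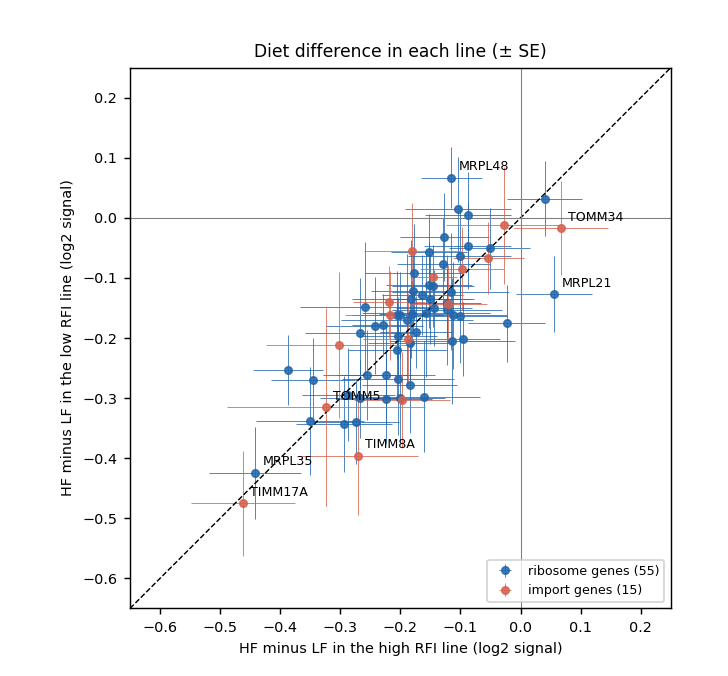
Diet difference (HF minus LF, log2 signal, ± SE) of the 70 tested genes in the low RFI line against that in the high RFI line, with the dashed line marking equal differences. Most genes lie below 0 in both lines and near the dashed line on this median-centred scale, with MRPL48 and MRPL21 furthest to either side, and spike-in centring left 0 ribosome genes called lower in the low RFI line and 4 in the high RFI line, beside 0.771% and 3.17% of all probes.

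Several genes were measured with more than 1 probe. Of 18 genes with several kept probes, 11 gave the same diet call with all of them and 7 did not. MRPL18 was called lower with 6 of 6 probes, from -0.21 to -0.17. MRPL40 was not alike between probes. Probe 1 gave -0.32 ± 0.06 at a mean level of 4.49. Probe 2, which shares no run of 20 bases with it, gave -0.01 ± 0.06 at a mean level of -2.28. Differences of dim probes are compressed without background subtraction, and its part in this gap was not tested. MRPL21 gave -0.04 with its representative probe and -0.21 with the other, which was called. MRPL52 gave -0.05 with its representative and was called lower with 2 of its 4 probes, at -0.16 and -0.17, neither called with spike-in centring. The representative was the brightest probe, and in MRPL14, MRPL24, MRPS14 and MRPS31 another kept probe likewise differed from it in call. In MRPS14 that other probe was dim, at a mean level of -2.82, against 3.05 for the representative.

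Probes with identical sequence differed little. In 5 such pairs the largest gap in the diet difference was 0.04, and the SD over pigs of the difference between the 2 probes was 0.06 to 0.12. MRPS18C gave -0.26 with each of its identical probes. The MRPL24 probe gave -0.20 ± 0.08 and its reverse complement -0.12 ± 0.06, and neither was called. The pair match opposite strands, and each was well above background on every one of the 48 arrays. The mean level was 5.12 for the MRPL24 probe and only -2.46 for its reverse complement.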

How the data were processed

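Cy3-labelled RNA of 48 pigs was measured on porcine arrays of 1 colour, with 1 pig for each array. Spot intensity values and flags of 0 or 1 were deposited by the authors as their scanner software made them, with no normalization between arrays. The log2 values deposited by the authors were filtered on intensity, uniformity, saturation and outliers and centred on the median of each array, with R 2.10.0 per the labels. The names of that table matched its values in 2 of 38142 cases, so names were taken from the spot with the same values (within 1e-06). These values have no background subtraction, which compresses the differences of dim probes. Many gene names on the array come from homology, and 73 of the 75 symbols are in the RefSeq gene table of the pig. The number of arrays limits the precision.

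Diet, line and their interaction were fitted over all kept probes by lmFit and eBayes of limma 3.58.1 (R 4.3.3), and the counts were made in Python 3.11.15 (scipy 1.17.1, pandas 2.3.3, numpy 2.4.6). Tested on simulated data for diet, limma called 68 of 108 probes changed by 0.25 and 87 of 92 changed by 0.5 on the log2 scale, and 15 unchanged ones. The simulation changed 200 of 38142 probes, far fewer than were called here, and drew the noise of each probe independently. Its rates therefore need not hold for these data. The rule for the genes named in the text took all import genes, the 10 ribosome genes with the largest called fall by diet (up to 5 with a called rise, of which there was none), the 3 with the lowest p for line, that with the lowest p for the interaction, the 3 with the brightest and the 3 with the dimmest probes, and for each related list the 2 genes with the lowest p for diet. Other genes named in the report were chosen after their values were seen. The members and lists were chosen with earlier results of these data known. Each of 6 slides held 2 arrays of each group, and 3 slides were scanned on each of 2 days. Alternatives covered the scaling (spike-in controls, quantile, normexp with an offset of 50, 75th percentile), the filter, blocks, array weights, thresholds and the choice of probe. Subcutaneous fat and other measurements on these pigs were not analysed here, and some probe sequences are not reported here.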

Additional observations from a re-analysis of the deposited data

How the results depend on the processing

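Directions and calls rested on the scaling and on the number of pigs. Of the differences of single named genes under the alternatives, 663 kept their direction and side of the threshold, 57 lost the call, 3 gained one and 20 changed sign, and none of those 20 had been called.

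With spike-in centring, genes called lower on HF fell from 30 to 6 for the ribosome, with 1 higher, and from 8 to 1 for import. Within the low RFI line they fell from 23 to 0 and from 3 to 1, and within the high RFI line from 19 to 4 and from 5 to 1. Ribosome line calls fell from 2 to 0, and 1 ribosome gene (MRPL48) passed a raw p under 0.01 for the interaction. The calls lower on HF as a share of all diet calls were 63.5% in the main fit made here, 10.9% with spike-in centring, 49.9% with quantile normalization, 48.3% with normexp and 49.5% with the 75th percentile.

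With quantile normalization the counts lower on HF were 19 and 4, within the low RFI line 15 ribosome genes, and within the high RFI line 11 and 3. With normexp they were 18 and 4, and 11 and 2 within the high RFI line. With the 75th percentile, 3 import genes were called within the high RFI line. Shares of all probes within each line are not given for these 3 scalings. With a fold over 1.5, 0 genes were called in any comparison. With names in capitals, an alternative chosen after seeing the data, 5 of 11 import genes were called for diet and 0 for line.

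Each scan day alone, also chosen after seeing the data, has 24 of the pigs. Shares of all probes called are not given for the scan days, the blocks or the array weights. The counts under those settings can therefore not be read against all probes, and the ribosome count for diet on day 2 is not given. Day 1 gave 19 ribosome and 3 import genes for diet, 0 and 0 within the low RFI line, 9 and 1 within the high RFI line, and 0 for line. Day 2 gave 5 import genes for diet, 15 ribosome genes within the low RFI line, 0 and 0 within the high RFI line, and 0 for line. Slide as a block gave 5 import genes within the low RFI line. Array weights gave 8 import genes within the high RFI line and 2 for line. For line on the HF diet, slide as a block, array weights and the mean of a gene's probes each gave 1 ribosome gene (MRPL9).

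The labels give replicate numbers without saying that they pair the pigs, and the main fit did not use them. Of 72 pairs with the same number 38 had deviations correlated above 0.1, and the lowest correlation was -0.27. The mean correlation was 0.11 for the same number and -0.01 for other numbers, and 16 of 48 pigs correlated best with a pig of their own number. Pigs with the same number were thus more alike on average, and what the numbers stand for was not tested. With the replicate number as a block, diet gave 33 ribosome and 8 import genes, line gave 2 and 2, the diet within the low RFI line 26 and 5, within the high RFI line 25 and 5, and line on HF 1 ribosome gene. As for the other blocks, shares of all probes are not given, so these counts cannot be read against all probes.

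Sign changes for diet came with spike-in centring in TIMM17B (0.00824), TOMM20 (0.0661), TOMM20L (0.106), TOMM22 (0.00392) and TOMM70A (0.0353), with quantile normalization in TOMM20 (0.000474), in TOMM20L with the 75th percentile (0.0864), normexp (0.016), array weights (0.0124) and scan day 2 (0.0646), and in TOMM34 with scan day 1 (-0.015). For line they came in TIMM22 with scan day 2 (0.0197), in TIMM50 with the 75th percentile (0.0182), quantile normalization (0.000712) and scan day 2 (0.0224), in TIMM8A with the 75th percentile (0.0148) and scan day 2 (0.0263), and in TOMM7 with spike-in centring (-0.0162), array weights (-0.00396) and scan day 2 (-0.0255). The cause was not tested. Probes near background (TIMM9, TOMM40, MRPL13, MRPS35) limit what can be said of these genes. The kept probes of TIMM50 (mean level -2.78), TOMM20L (-2.78) and MRPL39 (-3.00) were dim too.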
